A study of Mus musculus with 6 samples.

Results

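Pigment genes of the dorsal skin were compared between the tight skin (TSK) mouse and its wild-type (WT) littermates. The set holds 9 of the 55291 genes in the deposited table, chosen by their known roles in the melanocyte and in melanin synthesis: Tyr, Tyrp1, Dct, Pmel, Mlana, Mitf, Oca2, Slc45a2 and Mc1r. The rule used no measured value, although earlier results of these data were known when it was written. Shaved dorsal skin of 6 untreated mice, 3 of each genotype, was sequenced as total RNA with 1 library per mouse, to compare the expression profile of the tight skin with that of normal skin. TSK mice carry a heterozygous duplication inside Fbn1, the gene of the microfibril protein fibrillin-1, on the C57BL/6 background, and WT mice are C57BL/6 littermates without it. The labels give an age of 6 to 8 weeks for both genotypes, and the study's methods give 8 weeks for the TSK mice, with WT littermates. The labels describe the mice as female and the study's methods as male. The Y-linked Ddx3y stood at 56.7 to 72.8 CPM (counts scaled to the total of each library) in all 6 libraries. Whole skin was sequenced, so a difference in the number of melanocytes and a difference in RNA per melanocyte cannot be told apart. Nothing in the sources used here records the hair cycle stage or the pigmentation of these 6 mice.

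Melanin is made in melanosomes, organelles of the melanocyte, by the enzyme tyrosinase (Tyr) and the related enzymes Tyrp1 and Dct, on fibrils built from Pmel. In the trunk skin of C57BL/6 mice the pigment-producing melanocytes sit mainly in the hair follicle, where they make pigment during anagen, the growth stage of the hair cycle, and stop as the follicle regresses. The transcription factor Mitf activates the enzyme genes through an E-box element called the M-box, and the receptor Mc1r raises cyclic AMP, which acts on the melanocyte promoter of Mitf through a cyclic AMP response element (CRE).

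The promoters of the 3 enzyme genes and of Mitf are shown because they carry these elements. Each line is 100 bases from RefSeq (GRCm38.p6), 5′ to 3′ on the gene's strand. Capitals mark the M-box AGTCATGTGCT, read here as the longest run shared by the windows of Tyr and Tyrp1. They also mark the 10 bases GTCATGTGCT that Dct shares with both, and the CRE TGACGTCA in the most downstream of the 3 Mitf promoter windows. Both shared runs were taken from these windows, so their presence in them was fixed in advance.
Tyr, chr7:87493513-87493612, minus strand: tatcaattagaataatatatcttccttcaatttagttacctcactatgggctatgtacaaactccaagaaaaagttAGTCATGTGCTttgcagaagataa
Tyrp1, chr4:80834113-80834212, plus strand: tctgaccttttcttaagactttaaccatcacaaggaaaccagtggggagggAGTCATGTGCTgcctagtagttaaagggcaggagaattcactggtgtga
Dct, chr14:118052347-118052446, minus strand: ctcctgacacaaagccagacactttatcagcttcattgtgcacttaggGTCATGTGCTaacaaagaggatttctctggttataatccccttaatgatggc
Mitf, chr6:97991583-97991682, plus strand: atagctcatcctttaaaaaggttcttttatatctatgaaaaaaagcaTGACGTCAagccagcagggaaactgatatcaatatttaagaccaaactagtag

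The marked run begins 24 bases before the RefSeq start in Tyr, 49 bases before it in Tyrp1 and 152 bases before it in Dct, and the CRE begins 153 bases before the start in Mitf. RefSeq windows of 300 bases (250 before the start and 50 after it) were given for 6 of the 9 genes, Tyr, Tyrp1, Dct, Mitf, Mc1r and Oca2, in 8 windows. Over all 32851 mouse windows, searched on both strands, the M-box was found in 0.0213%, the run of 10 bases in 0.186% and the CRE in 1.79%. The E-box core CATGTG, which lies inside both longer runs, was found in 5 of the 6 matched genes, Mitf being the exception, and in 14.2% of all windows. These are matches of letters in a window. Binding was not measured.

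The 6 libraries held 17561453 to 19219814 estimated counts each, and all 9 genes were low next to such a total, with a counting error of the lowest count that ran from 5.54% for Mitf to 35.4% for Pmel among the tested genes. Counts of the adult skeletal muscle list made up 17 to 24.8% of the WT and 14.7 to 16.8% of the TSK libraries, and the trimmed mean of M-values (TMM) scaling factors ran from 0.823 to 1.03 in WT and from 1.06 to 1.13 in TSK. Levels below are deposited CPM, with SD over 3 mice, and values of a genotype are given in the order of mice 1 to 3. Fold changes are TSK minus WT on the log2 scale from edgeR's quasi-likelihood test after TMM scaling, with adjusted p from the Benjamini-Hochberg method over 19971 genes. Fbn1 was read first as the mutated gene. It stood at 267, 289 and 262 CPM in WT and at 1538, 2284 and 2007 CPM in TSK, and edgeR gave a log2 fold change of 2.54 with an SE of 0.22 and an adjusted p of 0.00327.

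Dct, Tyrp1 and Pmel were higher in every TSK library than in every WT library, at 2.35 to 2.44 times the WT mean in CPM, as were 29.1% of all tested genes in CPM (2.58% were lower in every TSK library), while Tyr, Mitf and Mc1r overlapped between the genotypes. None of the 9 genes passed the adjusted threshold of 0.05 in edgeR. Mlana, Oca2 and Slc45a2 had too few counts to be tested, and their counts are given as they are. Of the 19971 genes tested, 3.39% were called, 2.71% as higher in TSK and 0.681% as lower. At the study's stricter thresholds (adjusted p below 0.01 and a fold above 2.5), edgeR called 0.255% as higher and 0.0351% as lower, with no pigment gene among them.

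Dct, dopachrome tautomerase, converts the intermediate dopachrome on the way to eumelanin. It was at 4.64, 2.78 and 2.82 CPM in WT and at 6.14, 10.4 and 7.52 CPM in TSK, with the lowest TSK mouse above the highest WT mouse. The means were 3.41 ± 1.06 CPM in WT and 8.02 ± 2.17 CPM in TSK (SD, n = 3 each). The log2 fold change was 0.98 (SE 0.24, 95% interval 0.43 to 1.53), with an unadjusted p of 0.00321 and an adjusted p of 0.0669 in edgeR's fit across all genes. DESeq2 on the same counts gave a log2 fold change of 0.99 and called it, at an adjusted p of 0.0153. Without WT 1, the WT library in which Dct was highest, edgeR also called it (log2 fold change 1.18, adjusted p = 0.0424). Leaving out any of the other 5 libraries gave 0.76 to 1.12 and no call. The Dct value was not a whole number (within 0.001) in any of the 6 libraries, so reads were split between it and other features, and its transcripts have stretches that match 85 other genes, the longest of them in Dct-204, a transcript with a retained intron.

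Tyrp1, the tyrosinase-related protein that acts later in eumelanin synthesis, had 16, 14 and 14 counts in WT and 22, 57 and 33 in TSK. In CPM these were 0.911, 0.745 and 0.770 in WT against 1.21, 2.97 and 1.75 in TSK. The WT mice lay close together, at 0.809 ± 0.0896 CPM, and the TSK mice were spread, at 1.98 ± 0.899 CPM (SD, n = 3 each). The log2 fold change was 1.01 (SE 0.37, 95% interval 0.17 to 1.85, unadjusted p = 0.0243, adjusted p = 0.176 in edgeR). It was 0.60 when TSK 2, the highest library, was left out.

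Tyr, the rate-limiting enzyme of melanin synthesis, did not follow the pattern of the other enzymes. It was at 1.33, 1.14 and 1.59 CPM in WT and at 1.68, 1.38 and 1.44 CPM in TSK, so the genotypes overlapped. The means were 1.36 ± 0.226 CPM and 1.5 ± 0.16 CPM (SD, n = 3 each), and after scaling the log2 fold change was -0.10 (SE 0.27, 95% interval -0.73 to 0.53, adjusted p = 0.880 in edgeR). That interval holds changes of either sign. Its upper end lies below the estimates for Dct and Tyrp1 but inside their 95% intervals (0.43 to 1.53 and 0.17 to 1.85). The difference between the genes was not tested. The value of Tyr was not a whole number (within 0.001) in any of the 6 libraries, so reads were split between it and other features.

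Among the proteins of the melanosome itself, Pmel, which forms the fibrils on which melanin is laid down, had 15, 14 and 8 counts in WT and 20, 47 and 25 in TSK. The levels were 0.854, 0.745 and 0.440 CPM against 1.10, 2.45 and 1.33 CPM, with TSK 2 again the highest library. The means were 0.680 ± 0.215 CPM and 1.62 ± 0.721 CPM (SD, n = 3 each), the log2 fold change 0.98 (SE 0.40, 95% interval 0.05 to 1.90), and edgeR gave an unadjusted p of 0.0404 and an adjusted p of 0.225. Without TSK 2 the log2 fold change was 0.56. Pmel overlaps Cdk2 by 837 bases and Dgka by 105 bases on the opposite strand, both with more counts than Pmel (206 to 352 and 863 to 1146), and the sources used here do not state whether counting used strand.

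Mlana, the melanosome protein also called MART-1, had 1, 1 and 6 counts in WT and 10, 5 and 10 in TSK. The genotypes overlapped, as TSK 2 was below WT 3, which differs from the order of libraries seen for Dct, Tyrp1 and Pmel.

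The transporters were close to the detection floor. Oca2, a melanosomal anion channel whose loss in pink-eyed dilution mice lightens the coat, had 0, 1 and 0 counts in WT and 1, 5.39 and 0 in TSK. Slc45a2, a melanosomal transporter mutated in underwhite mice, had 1, 0 and 0 counts in WT and 2, 9 and 1 in TSK. In TSK 2 alone did either gene exceed 3 counts, the floor below which a count cannot be told from none, which is 0.156 to 0.171 CPM in these libraries. No fold change is given, because the WT libraries were at or under that floor.

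Mitf was the most abundant of the 9 and did not differ detectably. It was at 26.2, 20.3 and 17.9 CPM in WT and at 24.7, 24.4 and 30.0 CPM in TSK, with WT 1 above 2 of the TSK mice. The means were 21.5 ± 4.26 CPM and 26.3 ± 3.14 CPM (SD, n = 3 each), the log2 fold change 0.02 (SE 0.14, 95% interval -0.29 to 0.34, adjusted p = 0.948 in edgeR). Mitf is also used by mast cells, macrophages and other cells of the skin, and the count covers all of its promoters, so the melanocyte form was not measured apart.

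Mc1r, the melanocortin receptor of the melanocyte, was at 2.16, 1.42 and 1.81 CPM in WT and at 2.19, 1.80 and 1.93 CPM in TSK. The genotypes overlapped, with means of 1.80 ± 0.367 CPM and 1.97 ± 0.199 CPM (SD, n = 3 each) and a log2 fold change of -0.13 (SE 0.24, 95% interval -0.68 to 0.41, adjusted p = 0.807 in edgeR). The annotated gene lies wholly, over 3638 bases, inside Galnt2l on the same strand, which had 621 to 1082 counts, so the reads assigned to Mc1r are uncertain.

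**Figure D1:**
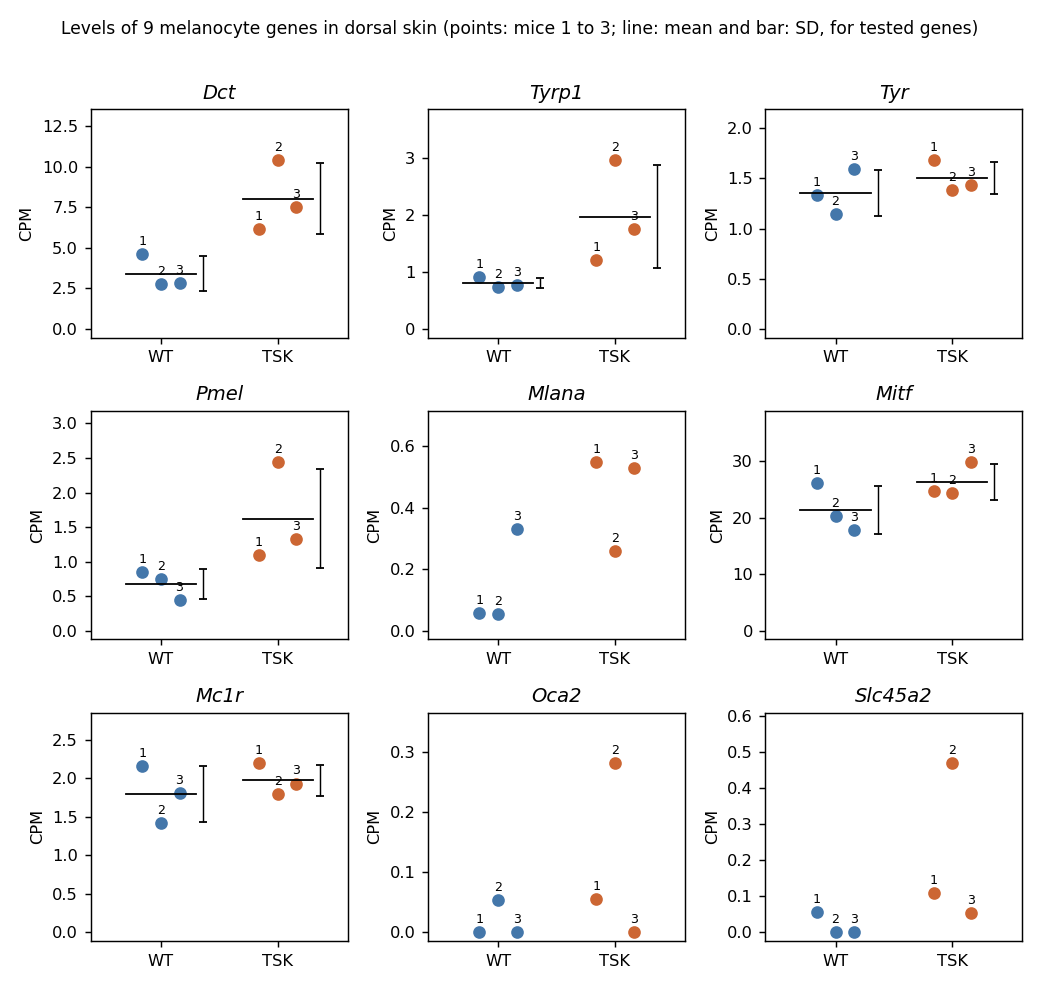
Deposited CPM (y axis, linear, from 0) of each of the 9 genes in the 3 WT (blue) and 3 TSK (orange) libraries, numbered by mouse, with the mean and SD for the 6 tested genes. Dct, Tyrp1 and Pmel do not overlap between the genotypes, Tyr, Mitf, Mc1r and Mlana do, and TSK 2 is the highest library for Dct, Tyrp1, Pmel, Oca2 and Slc45a2.

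Across the set, 6 of the 9 genes passed the filter on low counts, and 5 of those reached its cutoff of 0.541 CPM in all 3 WT libraries. Pmel reached it in 2 WT and 3 TSK libraries, so it met the filter of 3 libraries with the help of TSK. At an unadjusted p below 0.05, edgeR gave 3 of the 6 (Dct, Tyrp1 and Pmel, all higher in TSK), against 12.1% of all tested genes in that direction. Without Pmel it gave 2 of 5, against 20.6%, in either direction, of all genes at the cutoff in all 3 WT libraries. DESeq2 called 1 (Dct), against 5.5% of its genes called higher. Dct, Tyrp1 and Pmel did not overlap between the genotypes on either scale. Of all tested genes, 29.1% were higher in every TSK library in deposited CPM and 14.1% after TMM scaling. The median log2 fold change was 0.50 over the 6 tested genes and 0.02 over the 5 without Pmel, beside -0.03 over all genes tested.

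**Figure D2:**
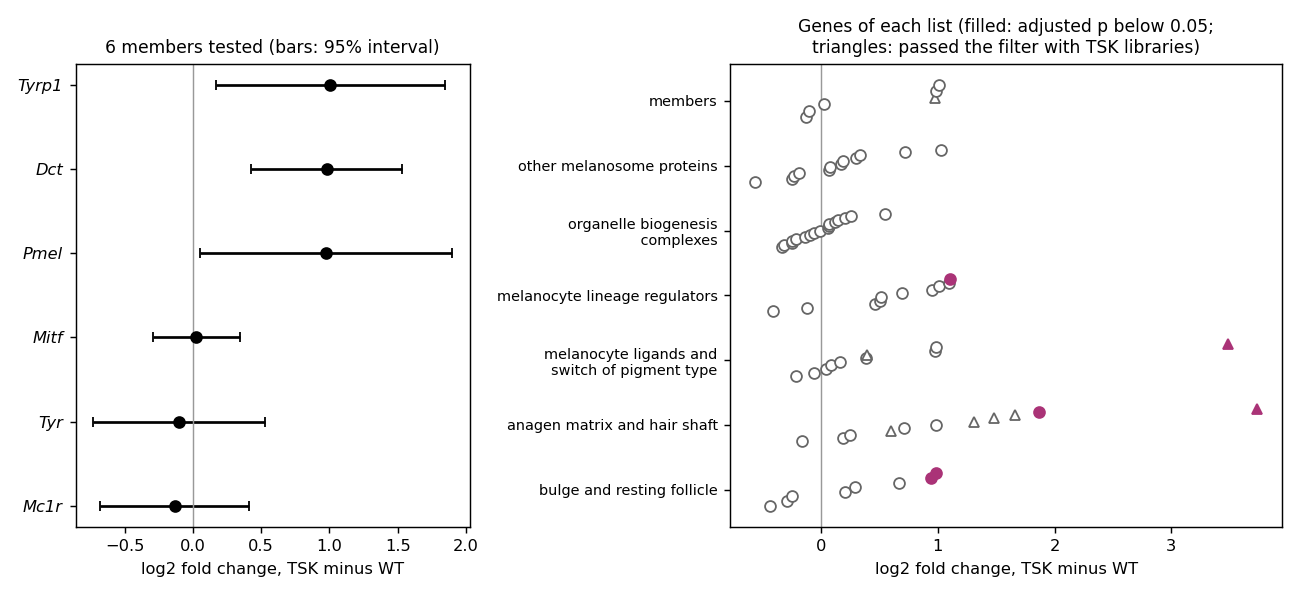
Left, log2 fold change of TSK over WT (x axis) with 95% intervals for the 6 tested pigment genes, and right, the same quantity for each tested gene of 7 lists (without 5 keratins that reached the filter's cutoff in no WT library), filled where the edgeR adjusted p was below 0.05 and drawn as a triangle where the gene met the filter with the help of TSK libraries. Dct, Tyrp1 and Pmel lie near 1 with intervals above 0, Tyr, Mitf and Mc1r lie near 0, and the called genes furthest to the right are Corin at 3.49 and Krt71 at 3.74.

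Levels were also set per kilobase of the longest coding transcript, the scale on which genes can be compared. In WT the order of mean CPM per kilobase was Mitf (4.4), Dct (1.55), Mc1r (0.494), Pmel (0.319), Tyrp1 (0.297), Tyr (0.224), Mlana (0.162), Slc45a2 (0.00636) and Oca2 (0.00567). In TSK it was Mitf (5.39), Dct (3.64), Pmel (0.762), Tyrp1 (0.726), Mc1r (0.543), Mlana (0.493), Tyr (0.248), Slc45a2 (0.0706) and Oca2 (0.0357). Mitf and Dct were the first and second in every library. Pmel, Tyrp1 and Mc1r lay within the spread of their neighbours in both genotypes, as did Slc45a2 and Oca2, Tyr and Mlana in WT, and Mc1r and Mlana in TSK. The transcript of Tyr used here is long, at 6042 bases, and this lowers its place.

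Ratios within a library do not depend on its scaling. The sum of Dct, Tyrp1 and Pmel was 4.81, 3.74 and 2.53 times Tyr in WT and 5.03, 11.4 and 7.38 times Tyr in TSK. These values do not overlap, although TSK 1 was close to WT 1. The genes above and below the line were chosen with their levels in view, so the ratio restates those levels and adds no separate observation. Dct stood at 13.7 to 17.7% of Mitf in WT and at 24.9 to 42.7% in TSK, both in CPM. Mitf made up 69.8 to 74.5% of the summed CPM of the 9 genes in WT and 54.9 to 67.3% in TSK.

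The hair follicle genes give the levels of anagen structures in the same libraries. Of 22 genes of the anagen matrix and hair shaft, 16 were tested. The filter asked for its cutoff in 3 libraries, and 10 of the 16 met it with the help of TSK libraries, so only the other 6, which reached it in all 3 WT libraries, are counted. Of these 6, 1 rose (2.69% of all genes at the cutoff in all 3 WT libraries did) and none fell in edgeR. Their median log2 fold change was 0.48. The gene that rose was Dlx3 (1.87, SE 0.29, edgeR adjusted p = 0.0171), a transcription factor of the hair matrix. Among the 10, the inner root sheath keratins Krt71, Krt25 and Krt27 were called (edgeR adjusted p = 0.0320, 0.0171 and 0.0348), and their values are given as a description. Krt71 had 23.8, 4 and 0 counts in WT and 103, 232 and 132 in TSK (log2 fold change 3.74, SE 0.72). Krt25 had 1.72, 4.4 and 0 counts in WT and 42.99, 129 and 46.98 in TSK, and Krt27 had 4.29, 5.62 and 5 in WT and 18.1, 61.7 and 36.5 in TSK. Krt83, Krt81 and Krt34, keratins of the hair shaft, had 0 to 7.13 counts per WT library and 9.77 to 45.7 per TSK library and were not called. No fold change is given for Krt25, Krt27, Krt83, Krt81 and Krt34, which reached the cutoff in no WT library, since so few WT counts leave the fitted value to the prior count. Without WT 3 the adjusted p of all 4 called genes rose above 0.05 (Krt25 0.06955, Krt71 0.0831, Dlx3 0.0853, Krt27 0.135). Without WT 1, which held most of its WT counts, the log2 fold change of Krt71 was 5.83, and its range without each library was 3.18 to 5.83. Krt71 lost its call without WT 2, TSK 2 or TSK 3 and in DESeq2, and Krt27 without any library other than TSK 1. Krt85 was not analysed here.

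The summed CPM of the 6 inner root sheath keratins Krt25, Krt27, Krt28, Krt71, Krt72 and Krt73 was 4.21, 3.14 and 2.86 in WT and 12.3, 28.2 and 16.98 in TSK. The summed CPM of Dct, Tyrp1 and Pmel was 6.40, 4.27 and 4.03 in WT and 8.45, 15.8 and 10.6 in TSK. These 6 keratins and the 3 pigment genes put the libraries in the same order, with TSK 2 highest, then TSK 3 and TSK 1, then WT 1, WT 2 and WT 3. The TSK mean was 5.63 times the WT mean for the keratins and 2.37 times for the pigment genes. Krt25, Krt27, Krt28 and Krt71 met the filter with the help of TSK libraries, and Krt73 was not tested. Krt72 alone reached the cutoff in all 3 WT libraries. Its TSK mean was 1.395 times its WT mean (log2 fold change 0.19, adjusted p = 0.730 in edgeR). The 6 keratins are part of the anagen matrix and hair shaft list, and the list as a whole did not give that order. Its 21 genes summed to 78.8, 62.5 and 38.3 CPM in WT and 101, 103 and 104 CPM in TSK, 1.72 times the WT mean, and the 15 genes other than these keratins summed to 1.48 times the WT mean, with WT 1 and TSK 2 nearly level at 74.6 and 75.1 CPM. TSK 1 was the highest library for 6 genes of the list, the transcription factors Dlx3, Foxn1, Hoxc13 and Msx2 among them, TSK 2 for 10 and WT 1 for 2, Tchh and Shh. Tchh, the trichohyalin of the inner root sheath and medulla, had a log2 fold change of -0.16 (adjusted p = 0.777 in edgeR). The genes were grouped with their values known and both sums share the libraries and their totals, so the match of order is a description. Foxn1, Hoxc13, Msx2, Tchh and Shh are named after their values were seen.

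**Figure D3:**
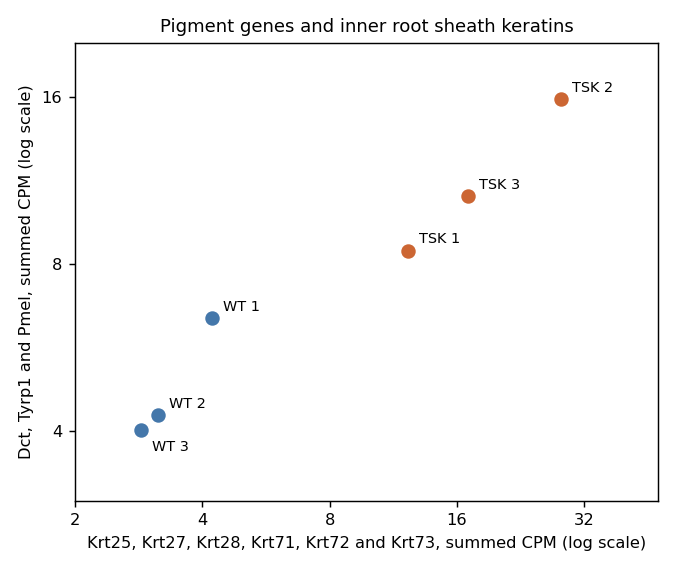
Summed CPM of Dct, Tyrp1 and Pmel (y axis, log scale) against summed CPM of 6 inner root sheath keratins (x axis, log scale), with 1 point per library, WT in blue and TSK in orange. The 6 libraries fall in the same order on both axes, from WT 3 at 2.86 and 4.03 CPM to TSK 2 at 28.2 and 15.8 CPM.

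Markers of the bulge and the resting follicle were also read, since they mark follicle stem cells and follicles outside anagen. Of 8 tested, 2 rose in edgeR, where 2.71% of all tested genes did. These were Bmp6 (0.98, SE 0.20, adjusted p = 0.0394 in edgeR), a growth factor of the resting follicle, and Cd34 (0.94, SE 0.16, adjusted p = 0.0202). Cd34 is a bulge marker that vessels and fibroblasts also express. Lgr5, Fgf18 and Krt15 had log2 fold changes of 0.67, -0.44 and -0.30 and were not called, and the list median was 0.25. Bmp6 lost its call without any of the 6 libraries (adjusted p of up to 0.142 in edgeR) and Cd34 without WT 2, WT 3 or TSK 2 (up to 0.1075).

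Regulators of the melanocyte lineage had a median log2 fold change of 0.60 over 10 genes, all tested, with 8 above 0 and 2 below. In edgeR 1 rose, where 2.71% of all tested genes did. At an unadjusted p below 0.05 edgeR gave 6, against 20% of all tested genes. Lef1 rose (1.11, SE 0.21, edgeR adjusted p = 0.0299), from 3.57, 2.20 and 2.17 CPM in WT to 7.32, 6.24 and 6.86 CPM in TSK. Lef1 is the Wnt effector that acts with Mitf on the Dct promoter and is also high in the hair matrix and dermal papilla. It lost its call when any library other than WT 1 was left out, with an adjusted p of up to 0.135. Ednrb and Kit, the endothelin and Kit ligand receptors on which melanoblasts depend, had log2 fold changes of 1.09 (adjusted p = 0.0876 in edgeR) and 1.01 (adjusted p = 0.0801), and Irf4, which acts with Mitf on Tyr, had 0.95 (adjusted p = 0.145). Sox10 and Pax3, the factors upstream of Mitf, had 0.50 and 0.52. Tfap2b and Tfap2a, the genes of the list below 0, had -0.41 and -0.12. None of these was called. Sox10, Pax3, Tfap2b and Tfap2a are named after their values were seen.

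Of 14 genes for ligands of the melanocyte and for the switch between pigment types, 10 were tested. In edgeR 1 of them rose, where 2.71% of all tested genes did. The median log2 fold change was 0.27, or 0.12 over the 8 genes at the cutoff in all 3 WT libraries, of which 0 were called. The gene that rose was Corin, a protease of the dermal papilla that lightens the agouti coat when lost, at 0.627, 0.266 and 0.660 CPM in WT and 7.59, 5.10 and 8.43 CPM in TSK (log2 fold change 3.49, SE 0.34, edgeR adjusted p = 0.00519). It reached the cutoff of the filter in 2 WT libraries and met the filter with the help of TSK. Its call held in all 17 other settings tried, including without each library. Fgf2 and Edn1, growth factors for melanocytes made by neighbouring cells, had log2 fold changes of 0.98 (adjusted p = 0.0522 in edgeR) and 0.98 (adjusted p = 0.0593), and Hgf had 0.39. Met, the receptor of Hgf, and Nfib had -0.21 and -0.07. The agouti gene, listed under its symbol a, which antagonises Mc1r, had 0, 1 and 2 counts in WT and 0, 6 and 6 in TSK, and was not tested. Kitl, the ligand of Kit, had a log2 fold change of 0.38 (adjusted p = 0.443 in edgeR) and, like agouti, Met and Nfib, is named after its values were seen.

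The remaining machinery of the melanosome was not called. Among 14 other melanosome proteins 12 were tested, none passed the edgeR threshold, 2 were at an unadjusted p below 0.05 (20% of all tested genes were) and the median log2 fold change was 0.12. The values furthest from 0 were those of Rab32 (1.03, adjusted p = 0.0710), a small GTPase that carries Tyr and Tyrp1 to melanosomes, Tpcn2 (0.72), a channel of the melanosome, and Gpnmb (-0.56), a relative of Pmel also made by macrophages. The untested Slc24a5 and Gpr143, both largely restricted to pigment cells, were listed at 0 in all 3 WT libraries, with 1, 4 and 1 counts of Slc24a5 and 0, 0 and 1 of Gpr143 in TSK. All 17 genes of the complexes that build melanosomes and related organelles were tested, none was called (1 at an unadjusted p below 0.05, against the same 20%), and their median was -0.01. Hps1, at 0.55, and Bloc1s2 and Bloc1s1, at -0.33 and -0.32, were furthest from 0.

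Over these 6 lists, 8 of 73 tested genes rose and none fell in edgeR, where 2.71% of all tested genes rose and 0.681% fell. DESeq2 called 14 genes of the lists, counted in either direction. Of all its genes, 5.5% were called as higher and 1.98% as lower. Of the 73, 12 met the filter only with the help of TSK libraries, and these hold 4 of the 8, Corin, Krt71, Krt25 and Krt27. Among the genes at the cutoff in all 3 WT libraries, 4 of 61 in the lists rose (Lef1, Dlx3, Bmp6 and Cd34), and 2.69% of 17912 over the whole table did. The count of 8 was 1 without WT 3 and 4 without WT 2, TSK 2 or TSK 3. Bloc1s6, the gene mutated in pallid mice, ends 2.55 Mb before Fbn1 on chromosome 2 and was read because of that position. It had a log2 fold change of -0.21 (SE 0.17, adjusted p = 0.527 in edgeR), and its sign turned, to 0.063, when libraries were scaled by their totals alone.

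Markers of other cells in the samples are set beside these values. The summed CPM of 8 mast cell markers was 5.69 to 7.15 in WT and 8.26 to 23.6 in TSK, with 0 of 5 tested genes called, 4 at an unadjusted p below 0.05 in edgeR (against 20% of all tested genes), a median log2 fold change of 1.09, and Fcer1a listed at 0 in all 3 WT libraries. The 8 macrophage markers summed to 198 to 269 CPM in WT and 345 to 1006 CPM in TSK. Of these, 0 of 8 were called, 6 were at an unadjusted p below 0.05 in edgeR, and the median was 0.99. The same share of 20% stands beside this list and each list that follows. The 10 Schwann cell markers summed to 196 to 360 CPM in WT and 361 to 602 CPM in TSK. Of these, 1 of 10 was called (Pmp22, higher), where 2.71% of all tested genes were called higher. At an unadjusted p below 0.05 edgeR gave 5, and the median was 0.48. The 7 basal keratinocyte markers summed to 5072 to 8320 CPM in WT and 4643 to 6667 CPM in TSK, with 0 called, 2 at an unadjusted p below 0.05 and a median of -0.46, and the 16 muscle genes had 0 called, 10 at an unadjusted p below 0.05 and a median of -0.79. Mast cells and macrophages use Mitf, mast cells use Kit, and Schwann cells use Sox10. Their part in those values was not tested.

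The pattern of the pigment genes over the 6 libraries was not particular to them. Galk1, Fmnl3 and Tex264 followed the mean standardized log2(CPM + 1) of Tyr, Tyrp1, Dct, Pmel and Mlana most closely, with Pearson's r of 0.997 for each, and 10.98% of 17601 genes had r above 0.9. Of the 5 genes in that mean, Dct had r of 0.92, Tyrp1 0.87, Pmel 0.80, Mlana 0.73 and Tyr 0.53. Likeness to Dct, Tyrp1 and Pmel alone was not measured. These correlations run over 6 libraries that share genotype and scaling, and are a description.

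The signs of the genes near 0 differed between settings. With library totals alone, which moved the median of all tested genes from -0.03 to 0.25, the log2 fold changes were 1.24 for Dct (called, adjusted p = 0.0288 in edgeR), 1.29 for Tyrp1 and 1.25 for Pmel (neither called), and 0.17 for Tyr and 0.13 for Mc1r, whose signs turned. With TMM scaling kept, Tyr was at 0.073 without WT 3, and Mitf at -0.062 without WT 3 and -0.058 without TSK 3. Over 17 other settings, Dct ranged from 0.76 to 1.24 with adjusted p from 0.0153 to 0.226 and was called in 6 of them. Tyrp1 ranged from 0.60 to 1.29 and Pmel from 0.56 to 1.25 in the same settings, and neither was called in any.

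**Figure D4:**
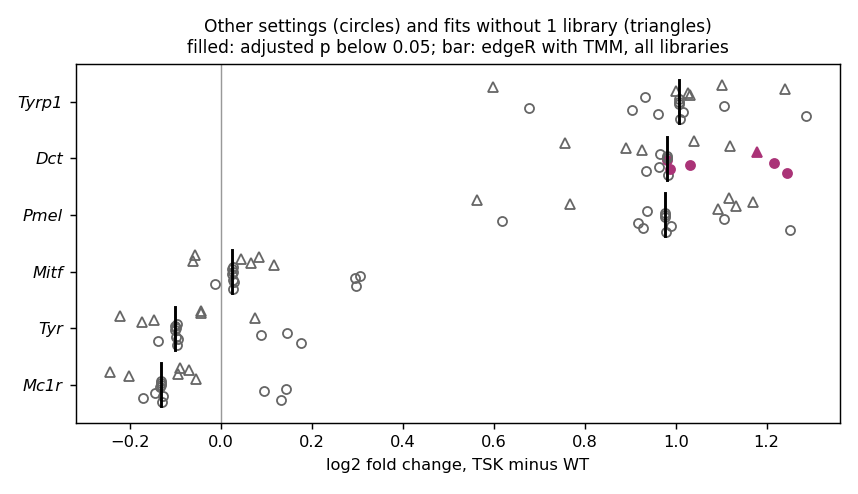
log2 fold change of TSK over WT (x axis) for the 6 tested genes under 11 other settings (circles) and without each library (triangles), filled where the adjusted p was below 0.05, with the reported value as a bar. Dct, Tyrp1 and Pmel stay above 0 throughout and Dct alone is called, in 6 of 17, while Tyr, Mitf and Mc1r lie on both sides of 0.

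The genes lie on different chromosomes for the most part. In mm10 (GENCODE M21), Dct is at chr14:118012790-118052244 on the minus strand, Tyrp1 at chr4:80834123-80851719 on the plus strand, Pmel at chr10:128704195-128720238 on the plus strand and Mitf at chr6:97807052-98021349 on the plus strand. Tyr, at chr7:87424771-87493512 on the minus strand, shares chromosome 7 with Oca2, at chr7:56239760-56536518 on the plus strand. Mlana is at chr19:29697824-29708634, Slc45a2 at chr15:11000721-11029233 and Mc1r at chr8:123407107-123410744, all on the plus strand. None of the 9 is on chromosome 2, where Fbn1 lies at chr2:125300594-125507993 on the minus strand.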

How the data were processed

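Per the labels and the study's methods, the authors prepared stranded, ribosomal RNA-depleted total RNA libraries, aligned reads to mm10 with STAR and quantified genes against an Ensembl annotation in Partek Flow (version 11.0 in the submitters' processing notes, with bcl2fastq 2.19.1.403). They deposited estimated counts per gene, in which reads that fit several genes are split, and CPM. Whether counting used strand is not given in the sources used here. Whole-number counts had been assumed, so the estimated counts were rounded. edgeR 4.0.16 (R 4.3.3) was run with TMM scaling, its default low-count filter and the quasi-likelihood test on all 6 libraries. Calls needed a Benjamini-Hochberg adjusted p below 0.05. DESeq2 1.42.0 and limma 3.58.1 were alternatives. The script was tested on simulated data. Intervals are at 95%, and the floor of 3 counts covers counting error only. Shared sequence was searched with BLAST 2.17.0, at 95% identity over at least 50 bases. Tyr matched 10 other genes, Dct 85 and Mc1r 21, and these 3 had no value within 0.001 of a whole number in any library.

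The pigment genes and lists were chosen with earlier results of these data known. Called genes of each list (at most 5) and up to 3 others furthest from 0 are named. Promoters came from RefSeq (GRCm38.p6). Nothing beyond the littermate label describes litters, so p-values measure the spread between these mice.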

Additional observations from a re-analysis of the deposited data

How the results depend on the processing

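Against 678 called genes, 0 pigment genes and 8 of the pathway lists in edgeR, scaling by library totals alone gave 1778 (94.8% of them higher in TSK, against 79.9%), 1 and 18. DESeq2 gave 1544, 1 and 14. limma-trend gave 1871, 1 and 18 on log2(CPM + 1) and 1860, 1 and 19 on log2(CPM + 0.1). With no filter edgeR gave 1387, 1 and 16. The study's thresholds gave 58 genes, 0 pigment genes and 1 pathway gene in edgeR and 376, 0 and 4 in DESeq2. The pigment gene was Dct in each case. Without each library in turn the counts ran from 60 (without WT 3) to 1260 (without WT 1), from 0 to 1 and from 1 to 9. Signs turned for Tyr, to 0.17 with library totals and 0.089 and 0.14 with limma-trend, and without each library it ran from -0.22 to 0.073 (without WT 3). They turned for Mc1r, to 0.13, 0.095 and 0.14, and for Bloc1s6, to 0.063, 0.066 and 0.0705, under the first 3 of these settings. Mitf turned to -0.014 with upper quartile scaling, and without each library it ran from -0.062 (without WT 3) to 0.12, being below 0 without TSK 3 as well. The cause was not tested. Of 102 other values for the 6 tested pigment genes 86 kept their sign and their side of the threshold. For the 10 other genes followed, 138 of 169 did, and 28 lost their call. The ratio of the summed CPM of Tyr, Tyrp1, Dct, Pmel and Mlana was 2.12, or 1.76 after TMM scaling and 1.98 without the muscle list. With the replicate number as a block, edgeR called 794 genes, 0 pigment genes and 11 pathway genes. Same-numbered libraries had deviations that correlated at 0.01, 0.17 and -0.09, so the numbers do not pair the mice. Depth limits Mlana, Oca2 and Slc45a2 most. In the lowest library, counting error was 35.4% for Pmel, 26.7% for Tyrp1 and 13.97% for Dct.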
